A study of Homo sapiens with 4 samples.

Results

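The 46 genes described here encode secreted or cell-surface components of the extracellular matrix and 1 enzyme that feeds it. They fall into 15 glycoproteins, 15 genes of elastic fibres and microfibrils, and 16 proteoglycan genes, the last including the hyaluronan synthase gene HAS2. All 46 were found by symbol among the 19381 genes of the deposited count table. Their transcripts were sequenced from SK-LMS-1, an established human line whose cells are labelled uterine leiomyosarcoma, a malignant tumour of the smooth muscle lineage. Treated cells (2 libraries) were held for 48 h in 50 µM 2-D08, a flavone that inhibits the joining of the small modifier SUMO to proteins. Untreated cells (2 libraries) are the reference, with no vehicle stated in the labels. The line is a single tumour-derived culture grown on plastic with serum, without other cells of a tissue. Separate cultures for the libraries of a group are not stated, so the p-values below measure only the spread between these libraries.

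Treated libraries held 14796702 and 31300635 counts, and untreated libraries held 29586475 and 16628710. Treated replicate 2 and untreated replicate 1 had even numbers in 88.8% and 89.0% of their positive counts, against 47.9% and 48.4% in treated replicate 1 and untreated replicate 2. Their totals may thus overstate depth. Of 10 smooth muscle markers, DES had no count in any library. MYOCD had 2 and 2 counts in treated libraries against 0 and 0 in untreated ones, and MYH11 had 10 and 24 against 14 and 12. These 3 defining markers of the labelled lineage were thus absent or rare. LMOD1 and ACTG2 were rare too, and ACTA2 and CNN1 were low, whereas CALD1, SMTN and TAGLN were expressed. The summed TPM of the 10 markers was 313 to 341 in treated and 378 to 384 in untreated libraries. Of 8 tested, 1 (SMTN) was called higher and 3 (TAGLN, CNN1 and CALD1) lower. Of 5 fibroblast markers, 1 of 4 tested was called higher and 2 lower (summed TPM 103 to 132 treated, 165 to 169 untreated). Of 6 epithelial markers 3 of 5 tested were called lower and 0 higher (230.3 to 296 treated, 319 to 374 untreated). Of 5 immune markers 2 of 3 tested (CD68 and LCP1) were called higher (152 to 175 treated, 110.3 to 113 untreated). CD68 alone made up 148 and 172 TPM of these sums in treated and 111 and 109 TPM in untreated libraries. PTPRC, CD14 and CD3E stayed below 1 TPM in every library. Beside all these marker counts, 17.1% of all tested genes were called higher and 16.9% lower. Endothelial markers stayed below 1 TPM in sum, with 1 of 2 tested called higher. Of the chondrocyte markers SOX9 was not called and COL2A1, COL9A1 and MATN1 had at most 2 counts in a library. The part of these shifts in the results below was not tested. In RNA from whole cultures, fewer cells expressing a gene and less RNA per cell cannot be told apart.

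As background, matrix glycoproteins such as fibronectin, the thrombospondins and the tenascins carry adhesion sites and bind collagens, integrins and growth factors. Fibrillins assemble into microfibrils, on which elastin is laid down with the help of fibulins, and latent TGF-beta binding proteins tether TGF-beta to the same scaffold. Proteoglycans are core proteins that carry long sulfated glycosaminoglycan chains. Some, such as versican and perlecan, are secreted, whereas syndecans and glypicans sit at the cell surface and act as co-receptors. Hyaluronan is a chain with no core protein, made at the plasma membrane by hyaluronan synthases and bound by versican and CD44. Fibroblasts and smooth muscle cells are major makers of this matrix.

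After treatment more of these genes fell than rose. Of 37 members with enough reads to test, 18 were lower and 3 higher in treated cells, and 16 were not called changed. A gene was called changed where edgeR's quasi-likelihood test gave an adjusted p under 0.05, adjusted over all 12906 genes tested. In the same comparison 16.9% of all tested genes were called lower, 17.1% higher and 33.9% changed in either direction. Lower calls made up 48.6% of the tested members and higher calls 8.1%. The members were chosen with earlier results of these data known, so these shares are a description only. At least 2-fold, 6 members were lower and 2 (HAS2 and SPP1) higher, against 3.05% and 3.26% of all tested genes (6.31% in either direction). The median log2 fold change (treated over untreated) was -0.49 over the tested members and 0.00 over all tested genes. In 28 of the 37 the groups did not overlap, as in 67.5% of all tested genes, so non-overlap alone says little with 2 libraries a group. Exactly 1 member, SPP1, passed the filter on low counts through treated libraries alone. Only a rise could thus be called for SPP1, and its place in the counts above is no support for a rise.

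**Figure D1:**
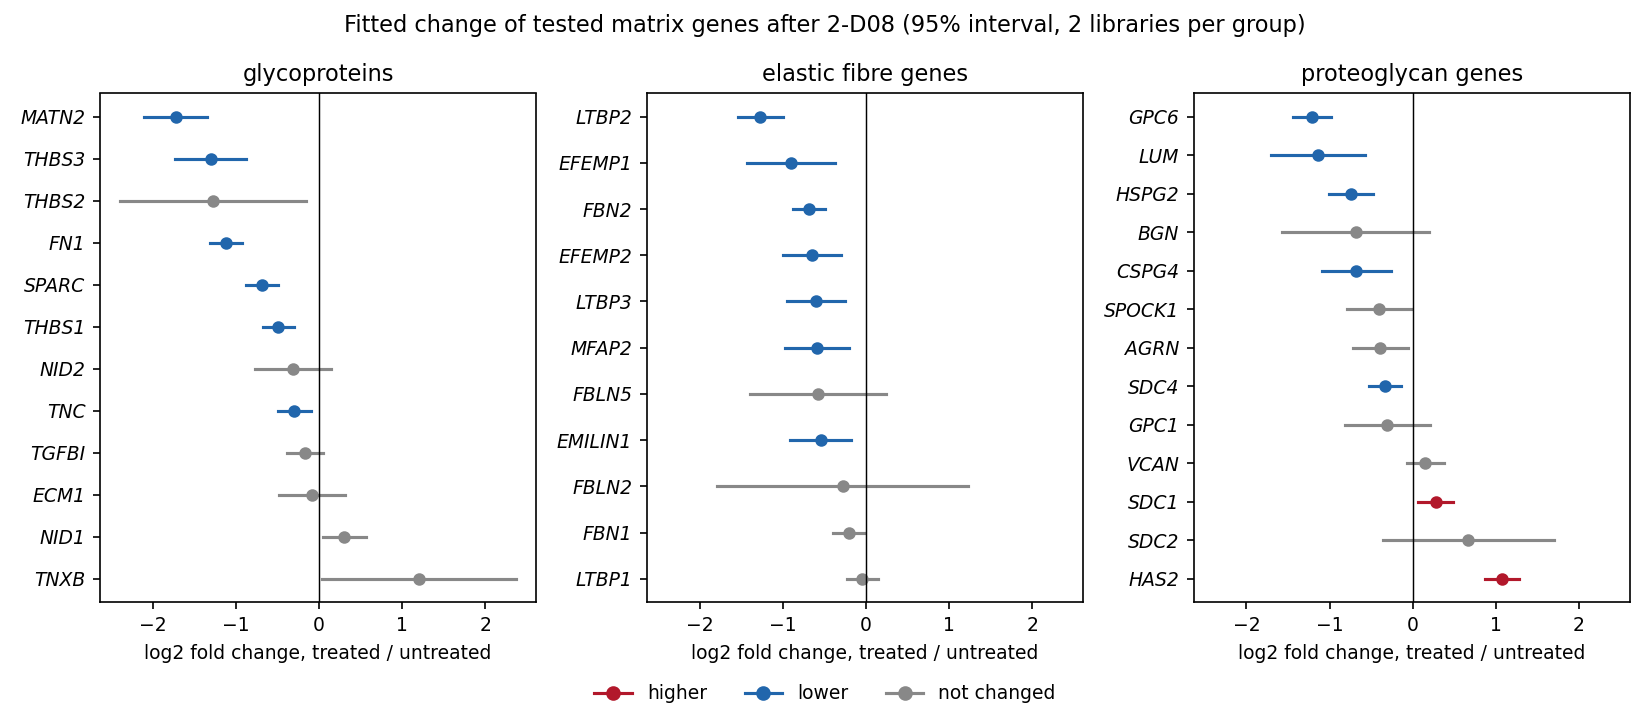
Fitted log2 fold change of treated over untreated libraries for the tested members of each class, with the 95% interval as a bar and colour giving the call (SPP1, with 1 count in the untreated libraries, is left out). All 11 elastic fibre genes lie below 0, and HAS2 stands alone above 1 among proteoglycan genes called changed.

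Replicates differed in a way that touched GC-rich members. Over the 37 tested members, the log2 ratio of replicate 2 to replicate 1 had a Spearman's rho with transcript GC content of -0.66 in treated libraries and -0.66 in untreated ones. Over 12574 tested genes with a GC value the rho was -0.62 and -0.41. The fitted treatment change of the members had a rho of -0.01 with GC content, against -0.19 over all those genes. These correlations are across genes, which share their libraries and are not replicates. AGRN (67.5% GC in its longest transcript), GPC1 (66.7%) and EMILIN1 (67.6%) show the pattern in their values below. With a trend on GC content and length removed from each library, a setting chosen after seeing the data, all 21 calls among the members were kept and TNXB, NID1, SPOCK1, AGRN and VCAN were added.

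Among the glycoproteins, 6 of 13 tested genes fell (46.2%, against 16.9% of all tested genes), with a median log2 fold change of -0.31. Only SPP1, which passed the filter through treated libraries alone, was called higher (7.7%, against 17.1% of all tested genes). Of the 5 most abundant transcripts of the class, SPARC, FN1, TNC and THBS1 fell and TGFBI was not called. SPARC, which encodes osteonectin, a collagen-binding matricellular protein, had the highest level of all members. It stood at 311 and 293 TPM in treated libraries, against 489 and 453 TPM in untreated libraries (TPM is scaled for length and so allows levels of different genes to be compared). Counts scaled to library size (CPM, after TMM scaling) gave 259 and 256 in treated and 429 and 398 in untreated libraries for SPARC, a log2 fold change of -0.68 ± 0.09 (SE, n = 2 per group; edgeR adjusted p = 7.27e-05). The 2 treated values were close together and well below both untreated ones. FN1, encoding fibronectin, the adhesive scaffold on which much of the matrix assembles, had 317 and 325 CPM in treated libraries and 719 and 675 CPM in untreated libraries. Its fall was 2.17-fold (log2 fold change -1.12 ± 0.09, edgeR adjusted p = 9.79e-07).

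MATN2, encoding the filament-forming adaptor protein matrilin-2, had the steepest fall of all tested members. It had 5.71 and 5.51 CPM in treated libraries, against 20.2 and 16.7 CPM in untreated libraries, a log2 fold change of -1.72 ± 0.18 (SE, n = 2 per group; edgeR adjusted p = 8.48e-06). MATN2 lies on chromosome 8 (97868840 to 98036716, GRCh38, plus strand). The thrombospondin genes encode secreted calcium-binding glycoproteins that act between cells and matrix. THBS3 had 5.18 and 4.15 CPM in treated and 12.1 and 10.5 CPM in untreated libraries (log2 fold change -1.30 ± 0.20, edgeR adjusted p = 0.000257). THBS1, whose product also releases TGF-beta from its latent form, had 229 and 231 CPM in treated and 329 and 317 CPM in untreated libraries (-0.49 ± 0.09, edgeR adjusted p = 0.000772). Both thrombospondin genes were lower in each treated library than in either untreated one. THBS2, at 0.864 and 0.357 CPM in treated and 1.08 and 1.70 CPM in untreated libraries, did not pass the test (edgeR adjusted p = 0.0723). THBS3 shares 146 exonic bases with MTX1 and 1027 with an antisense RNA on the opposite strand. Whether counting used strand is not given in the sources used here, so reads of the partners cannot be told apart. The same limit holds for SPARC (381 shared bases), THBS1 (448 with FSIP1 and 411 with an antisense RNA) and TNC (129). It also holds for FBN2 (56), EFEMP2 (11), LTBP2 (207), GPC6 (476) and CSPG4 (563).

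TNC, encoding tenascin-C, a modulator of adhesion in remodelling tissue and tumours, had 409 and 372 CPM in treated libraries and 496 and 462 CPM in untreated libraries. Its difference was small (log2 fold change -0.30 ± 0.09 SE, n = 2 per group; edgeR adjusted p = 0.0228). The TNC call was lost without untreated replicate 1 (edgeR adjusted p = 0.376) and without untreated replicate 2 (edgeR adjusted p = 0.135). SPP1, encoding osteopontin, an integrin-binding phosphoprotein, had 7 and 26 counts in treated libraries, against 0 and 1 counts in untreated libraries. SPP1 is counted as called higher, but it passed the filter on low counts through treated libraries alone. Only a rise could thus be called, so the call is no support for a rise and its p is not given. The call was lost once untreated replicate 1 was left out. The ratio of the summed SPP1 counts per effective library size was 33.2, with an exact 95% interval from counting error alone of 5.56 to 1350.4. The size of this ratio is thus poorly known. The interval takes each count as independent, which may not hold in treated replicate 2 with its mostly even counts, so it may be too narrow. At 0.465 and 0.843 CPM in treated libraries SPP1 remained a rare transcript.

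The remaining tested glycoprotein genes, of which only TGFBI was well expressed, did not pass the test. TGFBI, encoding a collagen-binding adhesion protein induced by TGF-beta, had 131 and 104 TPM in treated and 146 and 130 TPM in untreated libraries, levels that overlapped. On the CPM scale its log2 fold change was -0.17, with a 95% interval of -0.39 to 0.05 (edgeR adjusted p = 0.212). The nidogens link laminin to type IV collagen in basement membranes. NID1 had 28.4 and 28.5 CPM in treated and 23.5 and 22.5 CPM in untreated libraries, with a log2 fold change of 0.31 (95% interval 0.05 to 0.57) that missed the threshold after adjustment (edgeR adjusted p = 0.0662). NID2 had 8.77 and 6.13 CPM in treated and 9.88 and 8.17 CPM in untreated libraries, and the groups overlapped (edgeR adjusted p = 0.268). It shares 1915 exonic bases with RTRAF on the opposite strand, so its own reads are uncertain. ECM1, a secreted glycoprotein gene active in skin and vessels, had 9.70 and 8.82 CPM in treated and 8.77 and 10.9 CPM in untreated libraries (log2 fold change -0.08, 95% interval -0.48 to 0.31). TNXB, encoding tenascin-X, had 1.20 and 1.04 CPM in treated and 0.674 and 0.182 CPM in untreated libraries. It did not pass (edgeR adjusted p = 0.103), and reads that it shares with its pseudogene copy TNXA and with overlapping genes make it uncertain.

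**Figure D2:**
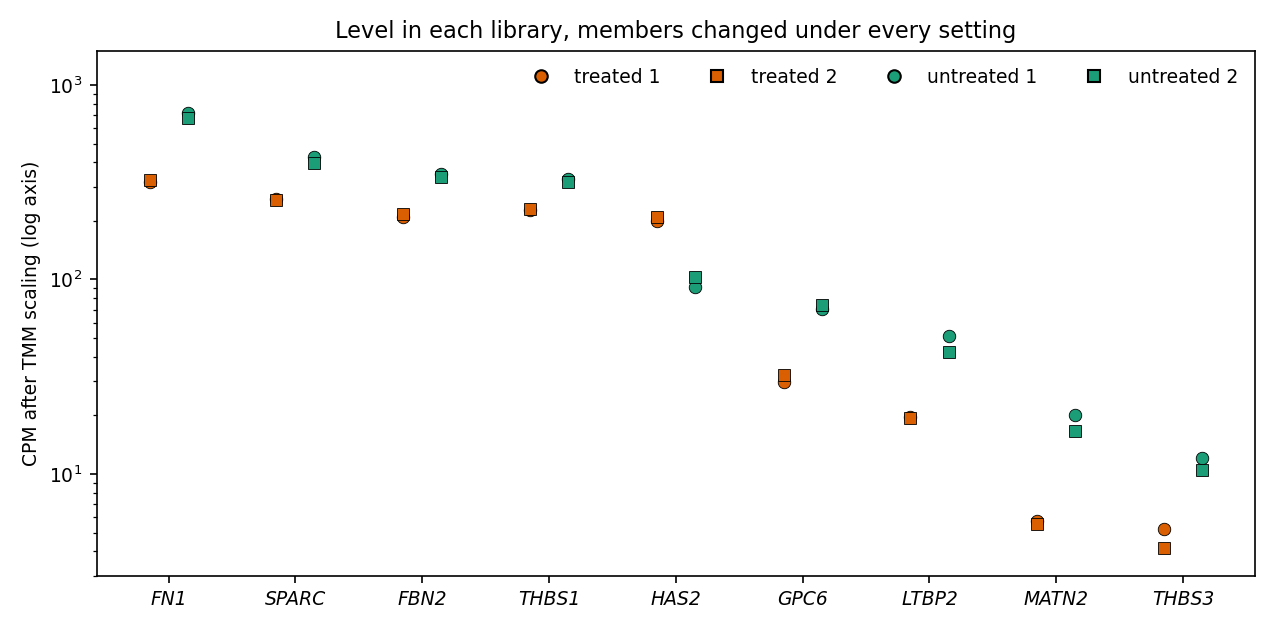
CPM after TMM scaling (log axis) in each library for the 9 members whose call held under all 17 other settings tried, treated points left of untreated ones, circles for replicate 1 and squares for replicate 2. HAS2 is higher in both treated libraries, and the other 8 are lower in both.

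Of 11 tested elastic fibre and microfibril genes, 7 fell (63.6%, against 16.9% of all genes) and 0 rose, and all 11 fitted values were below 0, with a median of -0.59. The steepest fall was that of LTBP2, which encodes a microfibril-associated protein that, unlike its relatives, does not bind latent TGF-beta. LTBP2 had 19.7 and 19.3 CPM in treated libraries and 51.0 and 42.6 CPM in untreated libraries, a log2 fold change of -1.27 ± 0.13 (SE, n = 2 per group; edgeR adjusted p = 6.47e-06). FBN2, encoding fibrillin-2, the fibrillin typical of developing tissue, had 209 and 217 CPM in treated and 349 and 335 CPM in untreated libraries (-0.68 ± 0.09, edgeR adjusted p = 7.05e-05). Both genes were separated by a wide gap between the groups.

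The other 5 falls in this class had larger adjusted p-values. EFEMP2, encoding fibulin-4, which is needed to assemble elastic fibres, had 13.8 and 10.7 CPM in treated and 19.6 and 18.3 CPM in untreated libraries (log2 fold change -0.65 ± 0.16 SE, n = 2 per group; edgeR adjusted p = 0.00711). LTBP3, encoding a carrier of latent TGF-beta, had 18.01 and 13.5 CPM in treated and 25.3 and 21.6 CPM in untreated libraries (-0.60 ± 0.16, edgeR adjusted p = 0.0110). EFEMP1, encoding fibulin-3, had 2.39 and 2.85 CPM in treated and 4.52 and 5.51 CPM in untreated libraries (-0.90 ± 0.25, edgeR adjusted p = 0.0126). In each of these 3 genes the treated libraries lay below the untreated ones without overlap. MFAP2, encoding a small glycoprotein of microfibrils, had 8.505 and 7.52 CPM in treated and 12.9 and 10.8 CPM in untreated libraries (-0.59 ± 0.18, edgeR adjusted p = 0.0218). EMILIN1, which encodes a glycoprotein at the interface of elastin and microfibrils, had 38.4 and 25.0 CPM in treated and 51.0 and 39.7 CPM in untreated libraries (-0.55 ± 0.17, edgeR adjusted p = 0.0259). Its treated replicate 1 lay just under untreated replicate 2. Of the 7 falls, 4 (EMILIN1, EFEMP2, LTBP3 and MFAP2) lost their call without untreated replicate 1 (edgeR adjusted p from 0.0891 to 0.324), and EFEMP1 did without untreated replicate 2 (edgeR adjusted p = 0.111). On the TPM scale 3 genes of the class were called and EMILIN1, EFEMP1, LTBP3 and MFAP2 missed the threshold, EMILIN1 also without treated replicate 2 (edgeR adjusted p = 0.0814) and with library size only (edgeR adjusted p = 0.0545), whereas LTBP2 and FBN2 passed under every setting tried.

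The most abundant scaffold genes of the class were not called changed. LTBP1, encoding the main carrier of latent TGF-beta, was its most abundant transcript at 92.9 and 94.96 TPM in treated and 94.7 and 99.7 TPM in untreated libraries. Its log2 fold change on the CPM scale was -0.04 with a 95% interval of -0.23 to 0.14 (edgeR adjusted p = 0.731). FBN1, encoding fibrillin-1, the chief microfibril protein of adult tissue, had 226 and 236 CPM in treated and 271 and 263 CPM in untreated libraries. The groups did not overlap, but the difference missed the threshold (log2 fold change -0.21, 95% interval -0.40 to -0.02, edgeR adjusted p = 0.0829). FBLN5, the fibulin-5 gene, lay at 1.33 and 1.36 CPM in treated and 2.56 and 1.33 CPM in untreated libraries, and FBLN2 at 0.731 and 0.194 against 0.607 and 0.303 CPM. Neither passed, and at these depths changes of over 2-fold lie within their 95% intervals (-1.40 to 0.24 and -1.79 to 1.23 on the log2 scale).

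Promoter sequence of the genes that fell is shown for the 4 elastic fibre genes with the smallest p among those with a RefSeq entry, since this class had the highest share of lower calls. Each line gives the 150 bases before the annotated transcription start, 5′ to 3′ on the gene's strand, from RefSeq on GRCh38.p14. Capitals mark matches to GGGCGG, the core of a GC box, on either strand (CCGCCC on the strand shown), where overlapping matches run together, and to CCAAT on either strand. LTBP2 is at chr14:74612238-74612387, FBN2 at chr5:128538246-128538395, EFEMP2 at chr11:65872801-65872950 and LTBP3 at chr11:65558360-65558509, all on the minus strand.
LTBP2: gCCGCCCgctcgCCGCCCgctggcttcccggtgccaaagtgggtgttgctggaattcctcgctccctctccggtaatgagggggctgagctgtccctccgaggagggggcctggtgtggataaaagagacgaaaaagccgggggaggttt
FBN2: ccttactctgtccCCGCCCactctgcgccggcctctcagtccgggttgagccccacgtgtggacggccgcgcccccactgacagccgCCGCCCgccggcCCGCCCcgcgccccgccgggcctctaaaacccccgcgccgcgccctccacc
EFEMP2: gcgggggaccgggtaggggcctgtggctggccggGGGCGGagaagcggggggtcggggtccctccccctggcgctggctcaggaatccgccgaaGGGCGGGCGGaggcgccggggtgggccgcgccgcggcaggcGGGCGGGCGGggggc
LTBP3: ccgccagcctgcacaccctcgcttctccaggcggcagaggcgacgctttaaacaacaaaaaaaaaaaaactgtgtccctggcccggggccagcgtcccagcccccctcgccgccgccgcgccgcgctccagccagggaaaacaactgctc

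The windows shown hold 2 GGGCGG matches in LTBP2, 3 in FBN2, 5 in EFEMP2 and 0 in LTBP3, and no CCAAT. Over the full RefSeq windows (250 bases before to 50 after the start, both strands), 34 members had 43 windows, and the other 12 were not included. GGGCGG was found in 65.1% of the members' windows, in 62.5% of the 16 elastic fibre windows and in 45.0% of all 35116 windows. The median GC content was 68.7% in the members' windows and 58.7% in all windows, and the motif is itself made of G and C. CCAAT was found in 25.6% of members' windows against 34.6% of all, TATAAA in 14.0% against 11.5%, TGANTCA, the AP-1 site, in 6.98% against 7.71%, and CACGTG in 2.33% against 7.26%. None of these 5 motifs contains another, and a match is a description of the letters, not a bound site.

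Of 13 tested proteoglycan genes 5 fell (38.5%, against 16.9% of all tested genes), with a median log2 fold change of -0.39. The 2 that rose, HAS2 and SDC1, made up 15.4%, against 17.1% of all tested genes. HAS2, which makes hyaluronan and is no core protein, rose most. It had 199 and 210 CPM (63.5 and 64.1 TPM) in treated libraries, against 91.4 and 103 CPM (30.1 and 32.8 TPM) in untreated libraries, a 2.11-fold rise (log2 fold change 1.08 ± 0.10 SE, n = 2 per group; edgeR adjusted p = 2.55e-06). HAS2 shares 201 exonic bases with HAS2-AS1 on the opposite strand, whose reads were not listed separately. The steepest fall was in GPC6, encoding glypican-6, a heparan sulfate proteoglycan anchored to the outer membrane by a lipid. GPC6 had 29.6 and 32.4 CPM in treated and 70.7 and 73.5 CPM in untreated libraries (-1.21 ± 0.11, edgeR adjusted p = 2.18e-06). It is a very long gene, spanning 1180560 bases of chromosome 13 (93226842 to 94407401, GRCh38). GPC1, encoding the related glypican-1, had 23.5 and 13.0 CPM in treated and 25.1 and 18.4 CPM in untreated libraries, and the groups overlapped (edgeR adjusted p = 0.347).

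Secreted proteoglycan genes, given here with the membrane proteoglycan gene CSPG4, were mostly lower or not called. HSPG2, encoding perlecan, the large heparan sulfate proteoglycan of basement membranes, had 50.3 and 39.5 CPM in treated and 79.2 and 69.4 CPM in untreated libraries (log2 fold change -0.74 ± 0.12 SE, n = 2 per group; edgeR adjusted p = 0.000489). HSPG2 shares 2121 exonic bases with LDLRAD2 on the opposite strand. LUM, encoding lumican, a small keratan sulfate proteoglycan that spaces collagen fibrils, had 2.79 and 2.07 CPM in treated and 4.58 and 5.99 CPM in untreated libraries (-1.14 ± 0.27, edgeR adjusted p = 0.00473). CSPG4, encoding the membrane proteoglycan NG2, had 10.2 and 8.23 CPM in treated and 16.9 and 12.1 CPM in untreated libraries (-0.68 ± 0.19, edgeR adjusted p = 0.0154). All 3 were lower in both treated libraries, but missed the threshold with limma on log2(TPM + 1) (adjusted p of 0.0956, 0.0891 and 0.180), and CSPG4 also without untreated replicate 1 (edgeR adjusted p = 0.363). VCAN, encoding versican, the large hyaluronan-binding proteoglycan, did not pass, with 98.3 and 120.2 CPM in treated and 100.1 and 97.2 CPM in untreated libraries (log2 fold change 0.15, 95% interval -0.07 to 0.38, edgeR adjusted p = 0.285). AGRN, encoding agrin, which clusters acetylcholine receptors at the neuromuscular junction, had 55.0 and 38.9 CPM in treated and 68.5 and 53.0 CPM in untreated libraries (-0.39, edgeR adjusted p = 0.0637). SPOCK1, encoding testican-1, lay at 7.11 and 8.30 against 10.0 and 10.5 CPM (-0.40, edgeR adjusted p = 0.0987), but at 3.85 and 5.15 TPM in treated against 3.08 and 3.21 TPM in untreated libraries, so its direction depended on the scale. BGN, the biglycan gene, had 0.797 and 1.23 CPM in treated and 2.09 and 1.21 CPM in untreated libraries and did not pass.

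The syndecans, membrane heparan sulfate proteoglycans, moved in opposite directions by small amounts. SDC4 was the most abundant transcript of the class in untreated libraries and close to HAS2 in treated ones, at 64.5 and 59.9 TPM in treated and 85.4 and 77.3 TPM in untreated libraries. On the CPM scale it had 120.5 and 117 in treated and 154 and 144 in untreated libraries and fell (log2 fold change -0.33 ± 0.09 SE, n = 2 per group; edgeR adjusted p = 0.0120). SDC1 had 111 and 95.8 CPM in treated and 86.9 and 83.4 CPM in untreated libraries and rose (0.28 ± 0.10, edgeR adjusted p = 0.0440). Leaving out either untreated library ended the call of SDC4 (edgeR adjusted p = 0.275 and 0.0903) and of SDC1 (edgeR adjusted p = 0.230 and 0.325), and the SDC1 call was also lost without treated replicate 1 (edgeR adjusted p = 0.126) and with DESeq2 (adjusted p = 0.0625). SDC2 lay at 0.797 and 1.17 CPM in treated and 0.742 and 0.484 CPM in untreated libraries and did not pass.

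The summed level of each class shows what these changes came to in transcript terms. Glycoprotein genes summed to 680 and 634 TPM in treated libraries, against 1024 and 949 TPM in untreated libraries, a ratio of group means of 0.666. SPARC made up 45.7% and 46.2% of that sum in treated and 47.7% and 47.7% in untreated libraries. Elastic fibre genes summed to 223 and 215 TPM in treated and 286 and 277 TPM in untreated libraries, a ratio of 0.780. With LTBP1 nearly level, its share of the sum was 41.6% and 44.2% in treated libraries, against 33.1% and 36.0% in untreated ones. Proteoglycan genes with HAS2, which is no core protein, summed to 249.5 and 229 TPM in treated and 243 and 229 TPM in untreated libraries, a ratio of 1.01. HAS2 alone stood at 63.5 and 64.1 TPM in treated and 30.1 and 32.8 TPM in untreated libraries. This total thus does not give the level of the core protein genes alone. On this scale the total of the class overlapped between the groups, while HAS2 took more of it and SDC4 less. The deposited TPM of the listed genes did not add to the same total in each library. Rescaled to the same total, the proteoglycan sums, again with HAS2, were 336 and 320 in treated and 319 and 307 in untreated libraries, without overlap. The glycoprotein (917 and 885 against 1344 and 1272) and elastic fibre sums (301 and 300 against 375 and 371) stayed lower in treated libraries. With 2 libraries a group an exact permutation test cannot give a p under 0.333, so none is given for these sums.

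**Figure D3:**
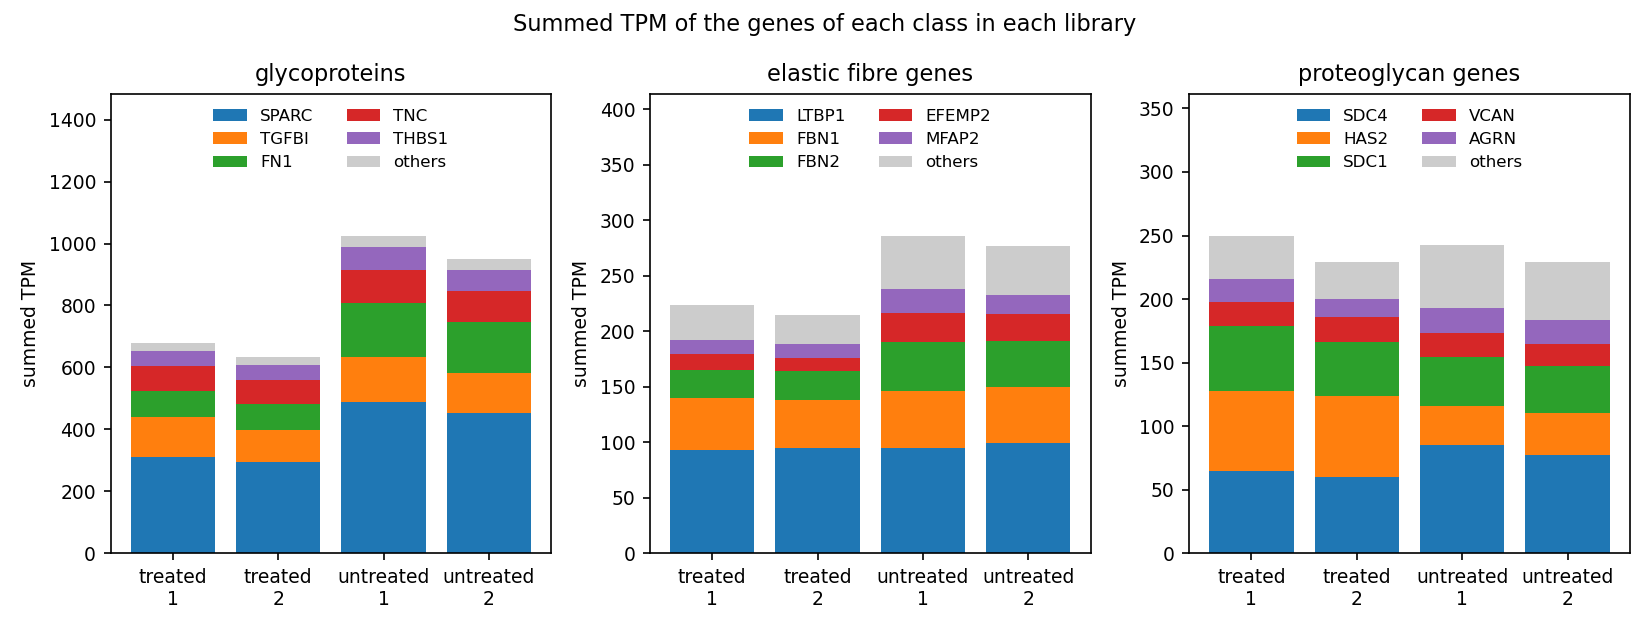
Summed TPM of the genes of each class in each library, with the 5 most abundant genes of a class as coloured blocks and the rest in grey. The glycoprotein and elastic fibre sums are lower in both treated libraries. The proteoglycan sums, which include HAS2, lie at 229 to 249.5 TPM in treated and 229 to 243 TPM in untreated libraries.

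Ratios of counts between related genes within a library do not depend on how libraries are scaled. They can still carry the GC difference between replicates where the 2 genes differ in GC content. Such pairs are LTBP3 (67.8% GC) with LTBP1 (51.7%) and GPC6 (41.6%) with GPC1 (66.7%). FBN2 to FBN1 was 0.923 and 0.921 in treated libraries, against 1.29 and 1.27 in untreated libraries. LTBP2 to LTBP1 was 0.0608 and 0.0580 in treated and 0.152 and 0.125 in untreated libraries. LTBP3 to LTBP1 was 0.0557 and 0.0404 against 0.0752 and 0.0636. These 3 ratios were lower in both treated libraries, which shows unequal change within the fibrillins and within the latent TGF-beta binding proteins in these 4 libraries. SDC1 to SDC4 was 0.923 and 0.817 in treated libraries and 0.563 and 0.577 in untreated libraries, and HAS2 to VCAN was 2.02 and 1.75 against 0.913 and 1.05. The glypican ratio, GPC6 to GPC1, was 1.26 and 2.50 in treated and 2.81 and 3.99 in untreated libraries, with a wide spread inside each group. In all 9 ratios computed the groups did not overlap, and the design allows no p under 0.333 for any of them. The share without overlap over other gene pairs was not computed, and 67.5% of all tested genes did not overlap by themselves. Several pairs, such as FBN2 to FBN1, set a gene called changed against one not called, so this count says little.

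**Figure D4:**
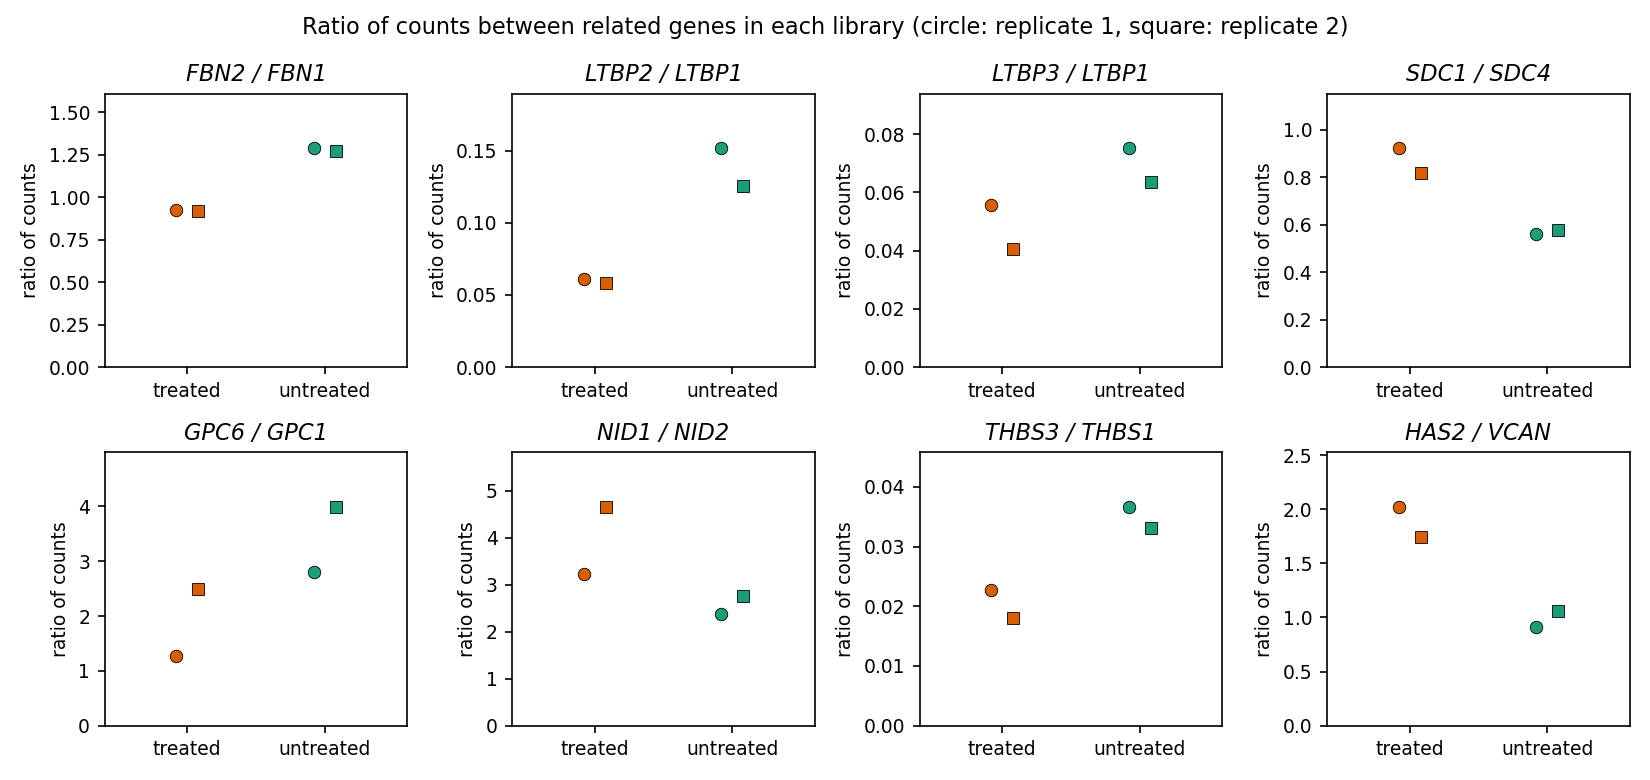
Ratio of counts between 2 related genes in each library (8 of the 9 ratios computed), treated left and untreated right, circles for replicate 1 and squares for replicate 2, each axis starting at 0. The fibrillin ratio lies near 0.92 in both treated libraries and near 1.3 in both untreated ones.

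The 9 members with too few reads to test include several genes that mark differentiated connective tissue. ELN, the elastin gene, had 7 and 12 counts in treated libraries and 10 and 7 counts in untreated libraries, so fibre and microfibril genes were expressed here next to very little elastin transcript. MFAP4, FBLN1 and MFAP5, which encode other elastic fibre components, had group sums of 14, 13 and 14 counts in treated libraries, against 23, 13 and 3 in untreated libraries. Small leucine-rich proteoglycan genes were also scarce, with DCN (decorin) at 14 against 11 counts and PRELP at 5 against 22. ACAN, the cartilage aggrecan gene, had 2 and 2 counts in treated and 0 and 0 in untreated libraries. SPARCL1, encoding a SPARC relative also called hevin, had 5 and 2 counts in treated libraries and 0 and 0 in untreated ones. POSTN, the periostin gene, had 2 counts in treated and 4 in untreated libraries in sum. Changes in these 9 genes were not tested.

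Other genes of the same pathways were counted from lists drawn up by function, but with earlier results of these data known. Of 20 tested genes that build glycosaminoglycan chains, 1 rose and 3 fell. CSGALNACT2, which starts and extends chondroitin chains, averaged 81.3 ± 4.94 CPM in treated and 49.9 ± 4.33 CPM in untreated libraries (SD, n = 2 each; log2 fold change 0.71, edgeR adjusted p = 0.000187). EXT1, a subunit of the heparan sulfate polymerase, averaged 121 ± 1.62 CPM in treated and 168 ± 3.68 CPM in untreated libraries (SD, n = 2 each; -0.48, edgeR adjusted p = 0.00102). EXTL2 (-0.40) and XYLT2 (-0.38) fell too. Of 16 tested genes that modify the chains 3 rose and 3 fell. The chondroitin sulfotransferase gene CHST11 (0.59) and PAPSS2 (0.43), which makes the sulfate donor, rose. The heparan sulfate N-sulfotransferase gene NDST2 (-0.83) and DSE (-0.43), which converts chondroitin to dermatan sulfate, fell. The remaining calls were HS3ST3A1 (0.52), a heparan sulfate sulfotransferase gene, which rose, and CHST14 (-0.42), which fell. In all, 4 of 20 and 6 of 16 genes of these lists were called, beside 33.9% of all tested genes.

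Around hyaluronan, 2 of 9 tested genes rose and 1 fell, so that 33.3% were called, near the 33.9% of all tested genes. CD44, the main hyaluronan receptor, averaged 1376 ± 36.6 CPM in treated and 1130.4 ± 21.1 CPM in untreated libraries (SD, n = 2 each; log2 fold change 0.28, edgeR adjusted p = 0.0192). HMMR (0.74), a hyaluronan-binding protein gene that is also active in mitosis, rose, and CEMIP (-1.07), which acts in hyaluronan breakdown, fell. A further list of 17 tested genes held proteases of these matrix proteins, their relatives and HPSE, which cuts heparan sulfate chains. Of these 17 genes 2 rose (11.8%, against 17.1% of all tested genes) and 6 fell (35.3%, against 16.9%). ADAMTS4, an aggrecan- and versican-cleaving protease gene, averaged 10.4 ± 1.02 CPM in treated and 4.36 ± 0.255 CPM in untreated libraries (SD, n = 2 each; 1.26, edgeR adjusted p = 0.000288). On the TPM scale its groups overlapped, at 1.95 and 2.53 in treated and 2.53 and 1.10 in untreated libraries. ADAMTSL1 (-1.16), a protease-like protein gene without catalytic domain, TLL1 (-0.97) and ADAMTS6 (-0.44) fell.

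Family relatives outside the 46 members were mixed. Of 10 tested relatives of the glycoproteins 3 rose and 4 fell, with CCN2 (0.45) and CCN3 (0.99) higher and FSTL1 (-0.40) and ECM2 (-1.46) lower. CCN5, a matricellular protein gene under the level set for naming and added after its values were seen, had the smallest p of that list. It had 0 and 2 counts in treated libraries, against 44 and 24 counts in untreated libraries (edgeR adjusted p = 0.000233). Of 6 tested relatives of the elastic fibre genes 1 rose and 2 fell. LTBP4, the fourth latent TGF-beta binding protein gene, averaged 20.1 ± 5.45 CPM in treated and 33.9 ± 5.28 CPM in untreated libraries (SD, n = 2 each; -0.79, edgeR adjusted p = 0.00298). MMRN2 was lower (-1.08) and MFAP3 higher (0.37). Of 9 tested relatives of the proteoglycans 1 rose and 2 fell. NRP1, a growth factor co-receptor that can carry a glycosaminoglycan chain, averaged 461 ± 23.0 CPM in treated and 769 ± 1.12 CPM in untreated libraries (SD, n = 2 each; -0.74, edgeR adjusted p = 3.56e-05). ESM1, the endocan proteoglycan gene, rose by 2.25 on the log2 scale, and COL18A1 fell by 0.83. Over the 87 tested genes of all these lists 14.9% were called higher and 24.1% lower, against 17.1% and 16.9% of all tested genes.

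**Figure D5:**
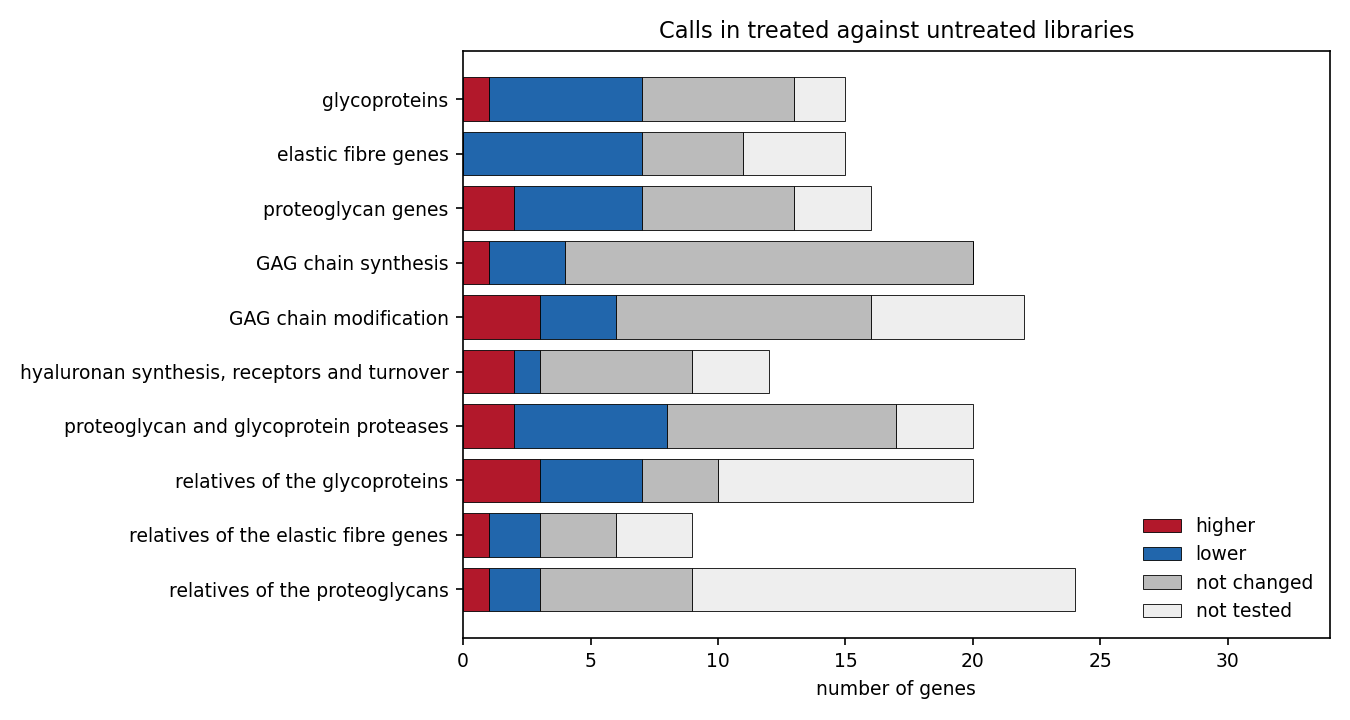
Number of genes called higher, lower or not changed in treated against untreated libraries, or not tested for want of reads, in the 3 member classes (top) and in 7 lists of related genes. The elastic fibre class has 7 lower and 0 higher calls, and GAG stands for glycosaminoglycan.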

How the data were processed

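Libraries were made from total RNA after removal of ribosomal RNA, per the labels' protocols. The submitters' processing notes name STAR 2.7.8a, cutadapt 3.4, DESeq2 and the build GRCh38. How reads were counted, with which strand setting and annotation, is not given in the sources used here. Deposited by the authors were raw read counts, TPM, and log2-like transformed values under the name of normalised counts, the last used only for an alternative.

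In R 4.3.3, edgeR 4.0.16 filtered the counts (filterByExpr, minimum count 10), scaled them with TMM factors and fitted a robust two-sided quasi-likelihood test on all 4 libraries, with Benjamini-Hochberg adjustment over 12906 genes. Standard errors and 95% intervals, which are not adjusted for multiple testing, came from its F statistic. DESeq2 1.42.0 and limma 3.58.1 served as alternatives. Intervals on counts cover counting error only. Positions, overlaps and GC content are from GENCODE release 29 (18821 of 19381 symbols matched), promoters from RefSeq. All members are accounted for, and values in every library are given for changed members, at most 8 per class by smallest p, and for unchanged members of at least 20 TPM. Values of the remaining tested members were added. Up to 4 changed genes of each related list are named by smallest p, if they average 1 CPM or more. CCN5, HS3ST3A1 and CHST14 are named in addition. Members and lists were chosen with earlier results of these data known.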

Additional observations from a re-analysis of the deposited data

How the results depend on the processing

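Of the 21 calls among the members, 9 (FN1, SPARC, THBS1, THBS3, MATN2, FBN2, LTBP2, GPC6 and HAS2) held in all 17 alternatives, and no called member turned sign in any. Against 4376 changed genes, limma gave 1598 on log2(TPM + 1) and 1608 on log2(TPM + 0.1), and leaving out a library gave 1866 to 6077. On both TPM scales 3 elastic fibre and 2 proteoglycan genes were called in place of 7 and 7, and 11 and 12 of the related genes in place of 34. Without 1 library the range was 5 to 11 for glycoproteins, 3 to 7 for elastic fibre genes, 4 to 9 for proteoglycan genes and 17 to 45 for related genes, lowest without untreated replicate 1 (a fit that takes the spread from the other group). Why these settings gave other counts was not tested. Same-numbered libraries, not stated to be paired, had deviations that correlated at 0.26 over 12906 genes, and with the replicate block 6239 genes and 11 glycoproteins were called. Halving the 2 libraries with mostly even counts, chosen after seeing the data, gave 4279 changed genes and kept 20 of 20 member calls, SPP1 no longer passing the filter. Among members not called changed, NID2 (0.25 and 0.21) and SPOCK1 (0.49 and 0.40) turned sign on log2(TPM + 0.1) and log2(TPM + 1), and LTBP1 did with the GC trend removed (0.042). Without 1 library ECM1 ran from -0.24 to 0.071, FBLN2 from -1.29 to 0.58, FBLN5 from -0.93 to 0.017, VCAN from -0.012 to 0.28 and GPC1 from -0.77 to 0.081.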
